A study of Mus musculus with 6 samples.

Results

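The plasma cell program was described with 9 genes, *Irf4*, *Prdm1*, *Xbp1*, *Pou2af1*, *Mzb1*, *Derl3*, *Fkbp11*, *Jchain*, and *Sdc1*, which were chosen by name and matched to the rows of the count tables by gene identifier. All 9 were found among the 46078 genes of the tables, and all 9 were among the 15554 genes that passed the filter on low counts. *Mzb1*, *Pou2af1*, *Derl3*, and *Fkbp11* passed that filter through the infarcts, since none of them held more than 8 counts in a contralateral library. RNA-Seq was performed on 3 chronic stroke infarcts and 3 contralateral cortices of male wild type C57BL/6J mice, which the labels give as aged 3 months. Stroke was induced by occluding the distal middle cerebral artery under added hypoxia, and both regions were taken 7 weeks after stroke, so the contralateral cortex is the uninjured hemisphere of a brain with a stroke and not tissue from an uninjured mouse. Infarcts were dissected by eye from saline-perfused brains. The sources do not pair the infarcts with the contralateral cortices by mouse. Infarct libraries held 12146959 to 13427057 counts on genes and contralateral libraries 11943570 to 19933962, and levels are given as CPM, the count on a gene relative to the TMM-scaled total of its library.

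Plasma cells are the antibody-secreting end stage of the B cell lineage. During differentiation IRF4 and PRDM1 shut down the B cell program, XBP1 expands the endoplasmic reticulum (ER) to carry the load of immunoglobulin, and the surface proteoglycan SDC1, known as CD138, appears on the cell. The joining chain, encoded by *Jchain*, is built into the polymers of IgM and IgA. Several of these genes are not particular to plasma cells. *Xbp1* acts in the unfolded protein response of most cell types, *Irf4* and *Prdm1* are used by activated T cells and dendritic cells, and *Sdc1* is made by epithelial and some stromal cells.

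All 9 genes were upregulated in infarcts compared with contralateral cortices, called by a log2 fold change above 1 and an adjusted *p* below 0.05 (edgeR quasi-likelihood test, Benjamini-Hochberg over all genes tested). Among those genes 25.7% were called higher in infarcts and 20.9% lower, and none of the 9 was called lower. In each of the 9, the lowest infarct library was above the highest contralateral library, as it was for 37.6% of the genes tested. The size of the difference varied widely, from a log2 fold change of 1.10 for *Xbp1* to 8.88 for *Jchain* and 8.99 for *Pou2af1*, with a median of 4.41 over the 9 genes and 0.03 over all genes tested. In bulk tissue more cells of a type and more RNA per cell cannot be told apart. All 9 remained called higher when any 1 of the 6 libraries was left out.

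**Figure D1:**
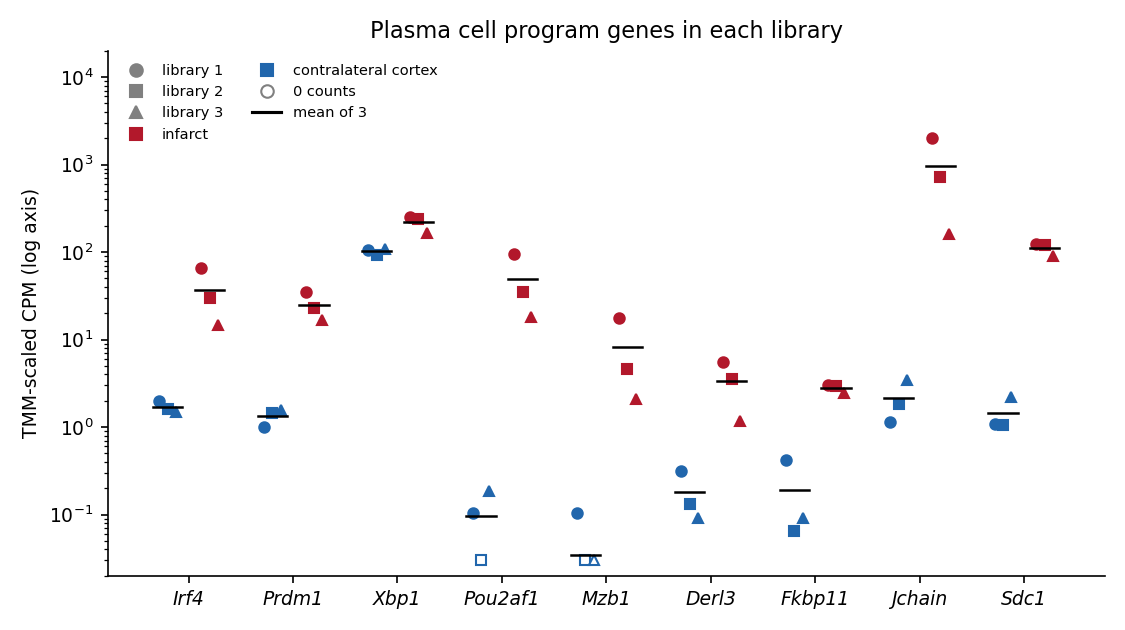
TMM-scaled CPM of the 9 genes (log axis) in each library, with 3 infarcts in red and 3 contralateral cortices in blue. Symbols give the library number within its region, black bars are the means of 3, and open symbols at the bottom are libraries with 0 counts. No infarct library overlaps a contralateral library for any gene, and the infarcts lie far apart for *Jchain*, *Mzb1*, and *Pou2af1* and close together for *Sdc1*, *Xbp1*, and *Fkbp11*.

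**Figure D2:**
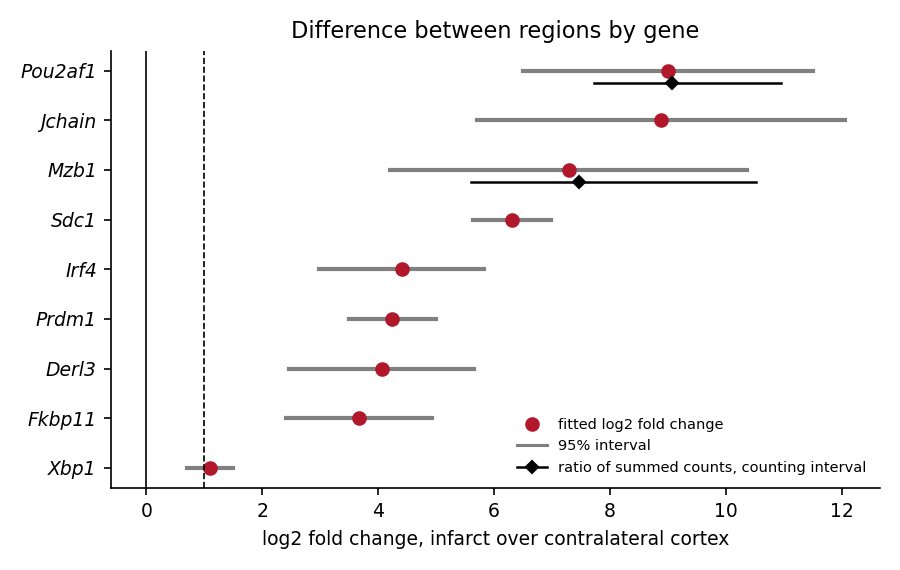
Fitted log2 fold change of infarct over contralateral cortex (edgeR, points) with its 95% interval (grey lines), by gene. The dashed line is the threshold of 1. For *Mzb1* and *Pou2af1*, which had 2 and 4 contralateral counts in all, black diamonds and lines give the ratio of the summed, scaled counts with its 95% counting interval. *Xbp1* is the only gene whose interval crosses the threshold, and its interval lies above 0.

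The stretches just upstream of the genes were read from RefSeq (GRCm38.p6) and searched for letters that factors of this program are known to recognize, on both strands, in the 250 bases before the annotated start. *Mzb1* was not searched. The other 8 genes had 9 such stretches, 2 of them for *Fkbp11*, among 32851 over all genes. The letters TGACGTGG, the unfolded protein response element that XBP1 binds, were found before *Pou2af1* only, 61 to 54 bases before the start, and were held by 0.563% of all stretches. The ER stress response element, CCAAT and CCACG with 9 bases between them, was found before *Derl3* only, on the reverse strand 156 to 138 bases before the start, and was held by 0.113% of all stretches. None of the 8 genes held the octamer ATGCAAAT, through which POU2AF1 acts with its POU partners and which 1.60% of all stretches held. None held the composite GGAA and GAAA 2 bases apart that IRF4 binds with an ETS partner, held by 2.30%, or the GAAA repeat 2 bases apart shared by IRF factors and PRDM1, held by 2.98%. A match is a run of letters and not a measured binding site, and the motifs may overlap. The stretches with a match are shown with the match in capitals, beside that of *Jchain*, the gene with the highest level in infarcts, which held none. They lie at chr9:51213440-51213689 (plus strand) for *Pou2af1*, chr10:75893148-75893397 (plus strand) for *Derl3*, and chr5:88527898-88528147 (minus strand) for *Jchain*, and each is written from 5′ to 3′ on the strand of its gene.
Pou2af1: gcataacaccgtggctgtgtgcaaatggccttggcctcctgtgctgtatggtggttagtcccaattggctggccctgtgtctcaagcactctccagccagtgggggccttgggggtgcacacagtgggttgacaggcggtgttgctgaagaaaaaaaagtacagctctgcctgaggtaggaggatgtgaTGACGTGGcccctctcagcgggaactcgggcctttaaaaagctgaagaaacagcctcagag
Derl3: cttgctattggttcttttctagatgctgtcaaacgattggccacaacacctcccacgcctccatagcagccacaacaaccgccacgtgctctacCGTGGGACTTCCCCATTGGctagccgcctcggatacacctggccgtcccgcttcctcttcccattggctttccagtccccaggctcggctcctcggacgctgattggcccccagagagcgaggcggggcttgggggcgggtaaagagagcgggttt
Jchain: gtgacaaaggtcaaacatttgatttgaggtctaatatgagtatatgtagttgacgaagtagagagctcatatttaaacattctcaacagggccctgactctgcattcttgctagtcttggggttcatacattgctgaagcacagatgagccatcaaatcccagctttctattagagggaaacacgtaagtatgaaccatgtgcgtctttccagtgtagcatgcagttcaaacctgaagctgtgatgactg

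Of the transcription factors, *Irf4* (chr13:30749226-30766976), which promotes the plasma cell fate at high levels, was higher in every infarct than in any contralateral cortex. It reached 65.9 CPM in infarct 1, 29.6 in infarct 2, and 14.5 in infarct 3, against 1.98, 1.63, and 1.48 CPM in contralateral cortices 1, 2, and 3. The infarcts were thus spread over a wide range, and the contralateral cortices were close together. The log2 fold change was 4.41 ± 0.60 (SE, n = 3 per region; adjusted *p* = 5.04e-04, edgeR quasi-likelihood test), and 3.69 without infarct 1.

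*Prdm1* (chr10:44437177-44528501), which encodes the repressor BLIMP-1 that ends B cell identity, was less spread. It measured 34.6, 23.1, and 16.7 CPM in infarcts 1, 2, and 3, against 0.992, 1.43, and 1.57 CPM in contralateral cortices 1, 2, and 3. All 3 contralateral libraries were low and close together. Its log2 fold change was 4.24 ± 0.33 (SE; adjusted *p* = 3.97e-06, edgeR quasi-likelihood test).

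*Xbp1* (chr11:5520659-5525893) had the smallest difference and was the only one of the 9 genes with a high level in contralateral cortex. It measured 253, 237, and 166 CPM in infarcts 1, 2, and 3, against 105, 92.7, and 108 CPM in contralateral cortices 1, 2, and 3. The regions did not overlap, but they were a little over 2-fold apart. The log2 fold change was 1.10 ± 0.18 (SE; 95% interval 0.69 to 1.50; adjusted *p* = 4.52e-04, edgeR quasi-likelihood test), and 1.002 without infarct 1, at the edge of the threshold. The XBP1 protein that drives secretion is made from a spliced transcript, and counts per gene do not tell the spliced from the unspliced form.

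*Pou2af1* (chr9:51213708-51240080) encodes the B cell coactivator of the octamer factors POU2F1 and POU2F2, and it is the gene shown above with TGACGTGG before its start. It held 1200, 477, and 266 counts in infarcts 1, 2, and 3, against 2, 0, and 2 counts in contralateral cortices 1, 2, and 3. Contralateral cortex was at or near 0 in every library. The infarcts measured 95.6, 35.0, and 18.2 CPM, and the ratio of the summed, scaled counts was 539 (95% counting interval 210 to 1982). The fitted log2 fold change of 8.99 ± 1.05 (SE; adjusted *p* = 2.80e-04, edgeR quasi-likelihood test) rests on 4 contralateral counts and was 8.12 without infarct 1.

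The ER genes held the fewest counts of the group. *Mzb1* (chr18:35647267-35649367), which encodes a chaperone that assists the assembly and secretion of IgM, held 224, 63, and 31 counts in infarcts 1, 2, and 3, against 2, 0, and 0 counts in contralateral cortices 1, 2, and 3. The infarcts differed greatly from each other, at 17.8, 4.63, and 2.12 CPM, while a count of 0 allows up to 3 counts. The ratio of the summed, scaled counts was 177 (95% counting interval 48.5 to 1464), and the fitted log2 fold change was 7.28 ± 1.31 (SE; adjusted *p* = 1.97e-03, edgeR quasi-likelihood test). It was 6.03 without infarct 1 and 9.77 without contralateral cortex 1, the only contralateral library with a count. In GENCODE M21, 57.2% of its exon bases are also annotated to a gene named SPATA24 on the same strand. The identifier of that gene has no row in the count tables, so no reads were counted under it. Reads of that gene over the shared bases may have been counted on *Mzb1* instead, and their part was not tested.

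*Derl3* (chr10:75893413-75895941) encodes a derlin of the pathway that draws misfolded proteins out of the ER for degradation, and it is the gene shown above with the ER stress response element. It held 69, 48, and 17 counts in infarcts 1, 2, and 3, against 6, 2, and 1 in contralateral cortices 1, 2, and 3. At these counts the lowest infarct was 1.16 CPM and the highest contralateral cortex 0.313 CPM. The log2 fold change was 4.06 ± 0.71 (SE; adjusted *p* = 6.95e-04, edgeR quasi-likelihood test), and 4.77 without contralateral cortex 1.

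*Fkbp11* (chr15:98724366-98728198), a prolyl isomerase of the ER that is abundant in secretory cells, was almost even across infarcts, with 38, 40, and 36 counts in infarcts 1, 2, and 3. Contralateral cortices 1, 2, and 3 held 8, 1, and 1 counts, so contralateral cortex 1 stood above the other two. The infarct mean was 2.81 ± 0.306 CPM (SD, n = 3) and the contralateral mean 0.192 ± 0.196 CPM. The log2 fold change was 3.66 ± 0.56 (SE; adjusted *p* = 2.99e-04, edgeR quasi-likelihood test), and it was 5.02 without contralateral cortex 1.

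*Jchain* (chr5:88519809-88527891), the secreted joining chain, had the highest mean level of the 9 genes in infarcts and the widest range. It held 25142, 9848, and 2370 counts in infarcts 1, 2, and 3, against 22, 28, and 37 counts in contralateral cortices 1, 2, and 3. In CPM these were 2003, 723, and 162 in infarcts and 1.15, 1.82, and 3.41 in contralateral cortices. Even the lowest infarct, which was infarct 3, was far above every contralateral library, but infarct 1 was 12.4-fold above infarct 3. The log2 fold change was accordingly imprecise, at 8.88 ± 1.27 (SE; 95% interval 5.71 to 12.05; adjusted *p* = 1.50e-03, edgeR quasi-likelihood test), and 7.80 without infarct 1.

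*Sdc1* (chr12:8771323-8793715), the surface proteoglycan by which plasma cells are commonly sorted, had the smallest *p* of the group. It measured 123, 119, and 90.6 CPM in infarcts 1, 2, and 3, against 1.10, 1.04, and 2.21 CPM in contralateral cortices 1, 2, and 3. Its infarct libraries were close together, in contrast to those of *Jchain*. The log2 fold change was 6.31 ± 0.30 (SE; adjusted *p* = 2.49e-07, edgeR quasi-likelihood test).

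Compared per kilobase of annotated exon, the level of *Jchain* in infarcts averaged 382 ± 375 CPM per kilobase (SD, n = 3), followed by *Xbp1* at 67.3 ± 14.2, *Sdc1* at 29.1 ± 4.65, and *Pou2af1* at 19.5 ± 16.0. *Irf4* at 7.48 ± 5.38, *Mzb1* at 6.74 ± 6.95, and *Prdm1* at 4.45 ± 1.62 CPM per kilobase came next, and *Derl3* at 1.70 ± 1.09 and *Fkbp11* at 1.04 ± 0.113 were lowest. Of these neighbors in the order, only *Xbp1* and *Sdc1*, and *Prdm1* and *Derl3*, had infarct libraries that did not overlap. In contralateral cortex the order was headed by *Xbp1* at 31.4 ± 2.54 CPM per kilobase, and none of the other 8 genes averaged more than the 0.846 ± 0.462 CPM per kilobase of *Jchain*. *Jchain* accordingly made up 77.0%, 61.4%, and 34.2% of all counts on the 9 genes in infarcts 1, 2, and 3, against 1.03%, 1.84%, and 2.91% in contralateral cortices 1, 2, and 3.

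The infarcts were not equal in the program. All 9 genes were highest in infarct 1 and lowest in infarct 3 by CPM, an order that 19.1% of all genes tested and 40.4% of the 3999 genes called higher also had. For *Sdc1*, *Xbp1*, and *Fkbp11*, infarcts 1 and 2 were close and their order rests on the scaling. Before scaling, infarct 2 held more counts than infarct 1 for these genes, such as 40 against 38 for *Fkbp11*. The spread among the infarcts differed from gene to gene. The highest infarct was 12.4-fold above the lowest for *Jchain*, 8.43-fold for *Mzb1*, 5.26-fold for *Pou2af1*, 4.74-fold for *Derl3*, and 4.53-fold for *Irf4*. It was 2.07-fold above the lowest for *Prdm1*, 1.52-fold for *Xbp1*, 1.36-fold for *Sdc1*, and 1.23-fold for *Fkbp11*. The median over the genes called higher was 1.46-fold, which *Prdm1* and *Xbp1* also exceeded and *Sdc1* and *Fkbp11* did not. Of these 3999 genes, 65 (1.63%) were spread at least as widely as *Irf4*. That 5 of the 9 genes are among them follows from the choice of *Irf4* as the cutoff. With 3 infarcts this is a description without a test.

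Other cell type markers differed among the infarcts as well. Relative to the mean of infarcts 2 and 3, infarct 1 was 4.53-fold higher for *Jchain*, 5.29-fold for *Mzb1*, 3.59-fold for *Pou2af1*, and 2.99-fold for *Irf4*, but 1.17-fold for *Sdc1* and 1.12-fold for *Fkbp11*. For the summed CPM of marker lists the same ratio was 3.21 for T cells, 2.89 for proliferation genes, 3.25 for red blood cells, 1.79 for B cells, 1.35 for macrophages, and 0.50 for neurons. Summed neuron markers were 428, 587, and 1136 CPM in infarcts 1, 2, and 3, so the infarct with the least of the plasma cell program held the most neuronal RNA. The part of any of these in the spread of the 9 genes was not tested.

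**Figure D3:**
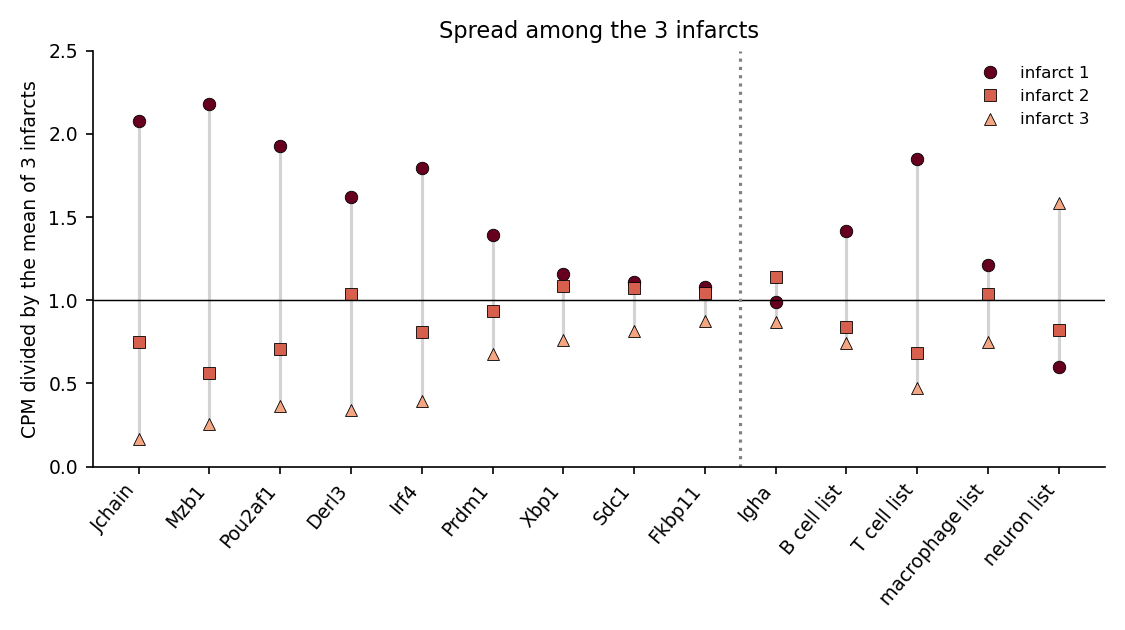
CPM of each gene, or summed CPM of each marker list, in infarcts 1, 2, and 3 divided by the mean of the 3 infarcts. The dotted line separates the 9 genes, in order of their spread, from *Igha* and the lists. Infarct 1 is highest and infarct 3 lowest for all 9 genes, *Igha* is almost even, and the neuron list runs the other way.

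RNA of the immunoglobulin constant genes was measured next, and the parts of B cells and of plasma cells in it were not tested. Of 12 constant genes 11 were tested and all 11 were called higher in infarcts, against 25.7% of all genes tested. Their median log2 fold change was 8.46, or 6.33 when the 4 genes at 0 in every contralateral library are set to their lower bound. Those 4 genes passed the low count filter through the infarcts, as did *Ighd*, *Ighg1*, *Ighg2b*, *Igkc*, and *Iglc2*. With at least 10 counts in every library, 2 constant genes were called higher. *Igha*, the heavy chain of IgA, held 505, 631, and 515 counts in infarcts 1, 2, and 3 and 0 in every contralateral library. Its infarct libraries were nearly even, whereas *Jchain*, whose product joins IgA, varied 12.4-fold. With each contralateral library set to 3 counts, the infarct mean of *Igha* was at least 194-fold higher. The kappa light chain *Igkc* held the most counts of the constant genes in each infarct, with 42767, 22027, and 9223 counts in infarcts 1, 2, and 3, against 8, 7, and 99 in contralateral cortices 1, 2, and 3. Only 9 of the 11 constant genes were called without infarct 1 or without any 1 contralateral library, since *Ighg1* and *Ighg2c* then missed the threshold.

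The heavy chain classes that made up these counts differed from infarct to infarct. *Ighm*, the heavy chain of IgM, held 79.3% of heavy constant counts in infarct 1 (95% Wilson interval 78.8 to 79.8) and 75.2% in infarct 2 (74.6 to 75.9), but 28.5% in infarct 3 (27.3 to 29.7). In infarct 3 *Ighg1*, of the IgG class, took its place with 48.8% (47.5 to 50.2), against 0.370% in infarct 1 and 0.520% in infarct 2. *Ighg2c* held 12.9%, 7.71%, and 0.940% of heavy constant counts in infarcts 1, 2, and 3, and *Ighg2b* was highest in infarct 2, at 10.1%. The infarct with the lowest *Jchain* and *Mzb1* was thus the one with the smallest share of *Ighm* and the largest of *Ighg1*. Heavy constant counts totaled 24594, 16168, and 5210 in infarcts 1, 2, and 3, against 180, 199, and 200 in contralateral cortices 1, 2, and 3. *Jchain* counts per heavy constant count were 1.02, 0.609, and 0.455 in infarcts 1, 2, and 3, against 0.122, 0.141, and 0.185 in contralateral cortices 1, 2, and 3. Set against *Ighm* and *Igha* alone, the classes that the joining chain is built into, they were 1.26, 0.770, and 1.19 in infarcts 1, 2, and 3, so that infarct 3 was then close to infarct 1. The IgG genes are close copies of each other, so that reads may be divided unevenly among them, and the intervals cover counting error only.

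**Figure D4:**
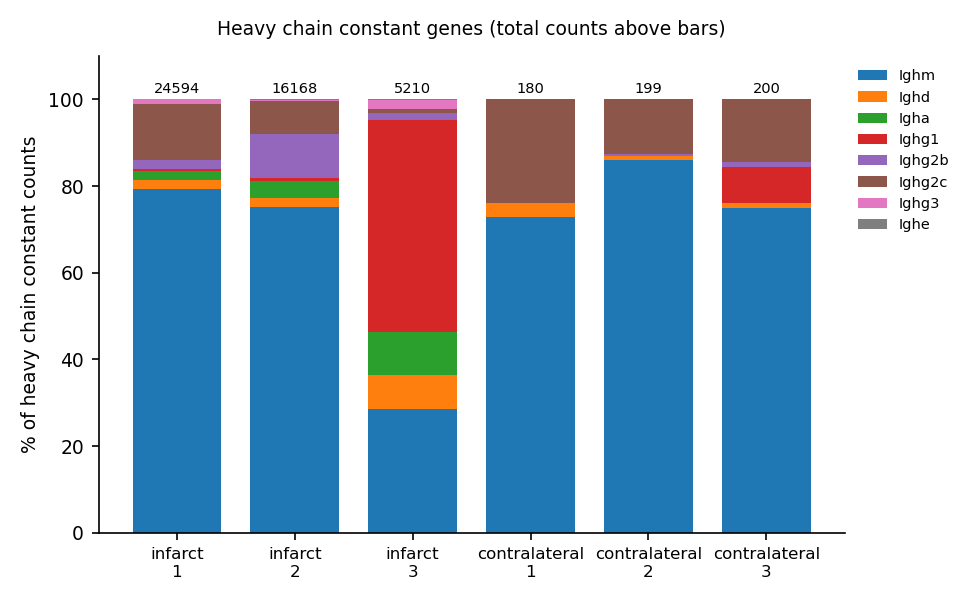
Share of heavy chain constant counts (%) that fell on each constant gene, in each of the 6 libraries. Infarcts 1 and 2 are mostly *Ighm* at 79.3% and 75.2%, *Ighg1* has the largest share in infarct 3 at 48.8%, and the contralateral bars rest on no more than 200 counts each.

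Other genes used by plasma cells were mostly higher too. Of 11 tested, 9 were called higher, against 25.7% of all genes tested, and 0 lower. *Slamf7*, *Eaf2*, *Fcrl5*, and *Lax1*, with no more than 11 counts in any contralateral library, passed the low count filter through the infarcts. With at least 10 counts in every library, 5 of these plasma cell genes were called higher. *Ell2* (log2 fold change 0.38, adjusted *p* = 0.169 by edgeR's quasi-likelihood test) and *Spag4* (-0.08) were not called. The largest difference was that of *Slamf7*, a surface receptor of plasma cells and other leukocytes, with 2621, 2069, and 1933 counts in infarcts 1, 2, and 3, against 1, 1, and 11 in contralateral cortices 1, 2, and 3. The fitted log2 fold change was 9.06, or 11.27 without contralateral cortex 3. *Cd38*, an ectoenzyme of plasma cells and activated leukocytes, rose by a log2 fold change of 5.20 ± 0.31 (SE). *Tnfrsf17*, the survival receptor BCMA and a narrow marker of late B lineage cells, had 40, 12, and 2 counts in infarcts 1, 2, and 3, against 3, 1, and 0 in contralateral cortices 1, 2, and 3, too few to be tested. Like *Jchain* and *Mzb1*, it was highest in infarct 1 and lowest in infarct 3, where it did not exceed contralateral cortex 1.

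The signals that keep plasma cells alive or attract them were also examined. All 8 of the receptors tested were called higher, against 25.7% of all genes tested. The 8 included the chemokine receptor *Cxcr4* (log2 fold change 6.99 ± 0.27, SE), the B lineage receptor *Tnfrsf13b* (3.89 ± 0.29, SE), and the integrin chain *Itga4* (1.80 ± 0.24, SE). *Cxcr4*, *Tnfrsf13c*, *Cxcr3*, and *Ccr9*, with no more than 7 counts in any contralateral library, passed the low count filter through the infarcts. Of 7 ligands tested, 5 were called higher and 1 lower, against 25.7% and 20.9% of all genes tested. *Cxcl9* and *Tnfsf13b* were among those that passed the low count filter through the infarcts. With at least 10 counts in every library, 1 ligand was called higher. *Cxcl12*, the ligand of CXCR4, rose by 2.51 ± 0.26 (SE) on the log2 scale. *Cxcl9*, a ligand of CXCR3, held 499, 147, and 177 counts in infarcts 1, 2, and 3 and 0 in each contralateral library, which makes it at least 99.6-fold higher, or at least 54.6-fold without infarct 1. *Tnfsf13b*, the survival factor BAFF, held 22, 23, and 26 counts in infarcts 1, 2, and 3, against 4, 7, and 3 in contralateral cortices 1, 2, and 3 (log2 fold change 2.45 ± 0.45, SE). *Ccl28*, an attractant of IgA-secreting cells at mucosal surfaces, was the ligand called lower, at -1.36, and missed the call at -0.99 without contralateral cortex 1. *Il6*, a survival factor of plasma cells, held no more than 3 counts in any library and was not tested.

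Genes of the secretory ER had smaller differences than most of the 9 genes. Of 22 chaperone and secretory genes 13 were called higher and 0 lower, against 25.7% and 20.9% of all genes tested. Their median log2 fold change was 1.19. The largest differences were those of *Sec24d*, a coat protein of vesicles leaving the ER (3.00 ± 0.19, SE), and *Edem1*, which passes misfolded glycoproteins to degradation (2.52 ± 0.17, SE). *Hspa5*, the major ER chaperone, rose by 1.33 ± 0.18 (SE). *Herpud1*, *Sel1l*, and *Syvn1*, between -0.08 and 0.19 on the log2 scale, were not called. Among 6 sensors and effectors of the unfolded protein response only *Ern1*, which encodes the enzyme that splices *Xbp1* RNA, was called higher (2.32 ± 0.16, SE), and the median over the 6 was 0.09. *Atf6* (-0.23), *Eif2ak3* (0.36), *Atf4* (-0.43), *Ddit3* (-0.18), and *Ppp1r15a* (0.62) were not called.

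Family relatives of the 9 genes, some of them also used in B cells, were mostly higher as well. Of 14 relatives 11 were called higher and 0 lower, against 25.7% and 20.9% of all genes tested. Their median log2 fold change was 1.81, against 4.41 for the 9 genes. The syndecan *Sdc4* rose by 2.07 ± 0.14 (SE) on the log2 scale, against 6.31 for *Sdc1*, and the derlin *Derl1* by 1.25 ± 0.22 (SE), against 4.06 for *Derl3*. *Irf8*, an interferon regulatory factor of macrophages, dendritic cells, and B cells, had the largest difference of the relatives, at 4.75 ± 0.28 (SE), against 4.41 for *Irf4*. *Fkbp2*, an ER relative of *Fkbp11*, had the lowest value, at -0.70, and was not called. Of the octamer factors that POU2AF1 assists, *Pou2f2* rose by 1.67 ± 0.32 (SE) and *Pou2f1*, at 0.50, was not called.

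Markers of other cell types differed between the regions together with the 9 genes. Of 14 B cell program genes 13 were called higher, against 25.7% of all genes tested. With at least 10 counts in every library, 4 B cell genes and 1 T cell marker were called higher. *Pax5*, the factor of B cell identity that PRDM1 represses, rose by 7.80 ± 0.41 (SE) on the log2 scale. *Bach2*, a repressor that holds back plasma cell differentiation, was at 0.71 and not called. The summed CPM of the B cell list was 297 to 568 in infarcts and 45.0 to 48.9 in contralateral cortices. T cell markers, with 7 of 7 tested called higher, summed to 42.1 to 166 CPM in infarcts and 2.56 to 3.71 in contralateral cortices. Macrophage markers, with 7 of 8 called higher, summed to 5884 to 9494 CPM and 168 to 223 CPM. Fibroblast and leptomeningeal markers, with 4 of 4 called higher, summed to 2746 to 3519 CPM and 86.2 to 152 CPM. Neuron markers, with 5 of 5 called lower, against 20.9% of all genes tested, summed to 428 to 1136 CPM and 6687 to 7756 CPM. The part of these cell types in the differences of the 9 genes, several of which they can also express, was not tested.

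Plasmacytoid dendritic cells share *Mzb1*, *Irf8*, and part of the secretory program with plasma cells, so their markers were read separately. Of 3 markers tested, *Ly6d*, which B lineage cells also express, was called higher (5.08), *Cox6a2* lower (-1.49, not called without contralateral cortex 3 or infarct 3, nor with the replicate number as a block), and *Siglech*, which microglia also express, was at 0.02 and not called. *Ptcra* was at 0 in every infarct, *Klk1* held no more than 3 counts in any infarct, and the list summed to 24.3 to 26.7 CPM in infarcts and 18.9 to 20.6 CPM in contralateral cortices. Red blood cell markers, with 2 of 2 tested called higher, summed to 7.71 to 28.3 CPM in infarcts and 0.846 to 4.02 CPM in contralateral cortices. Of 4 choroid plexus markers tested 2 were called higher, or 4 without infarct 2, and *Ttr*, the defining transcript of that tissue, held no more than 3 counts in any library. Astrocyte markers had 1 of 4 called higher and 1 lower. Proliferation genes had 4 of 4 tested called higher, against 25.7% of all genes tested. With at least 10 counts in every library, 0 proliferation genes, 0 red blood cell markers, and 0 choroid plexus markers were called higher. Of 4 oligodendrocyte markers 1 was called higher, with a median log2 fold change of 0.96 close to the threshold, and 3 were called without infarct 1, infarct 2, or contralateral cortex 3, or with scaling by library totals. Mitochondrial genes took 2.71% to 3.55% of the infarct counts and 5.50% to 6.66% of the contralateral counts.

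**Figure D5:**
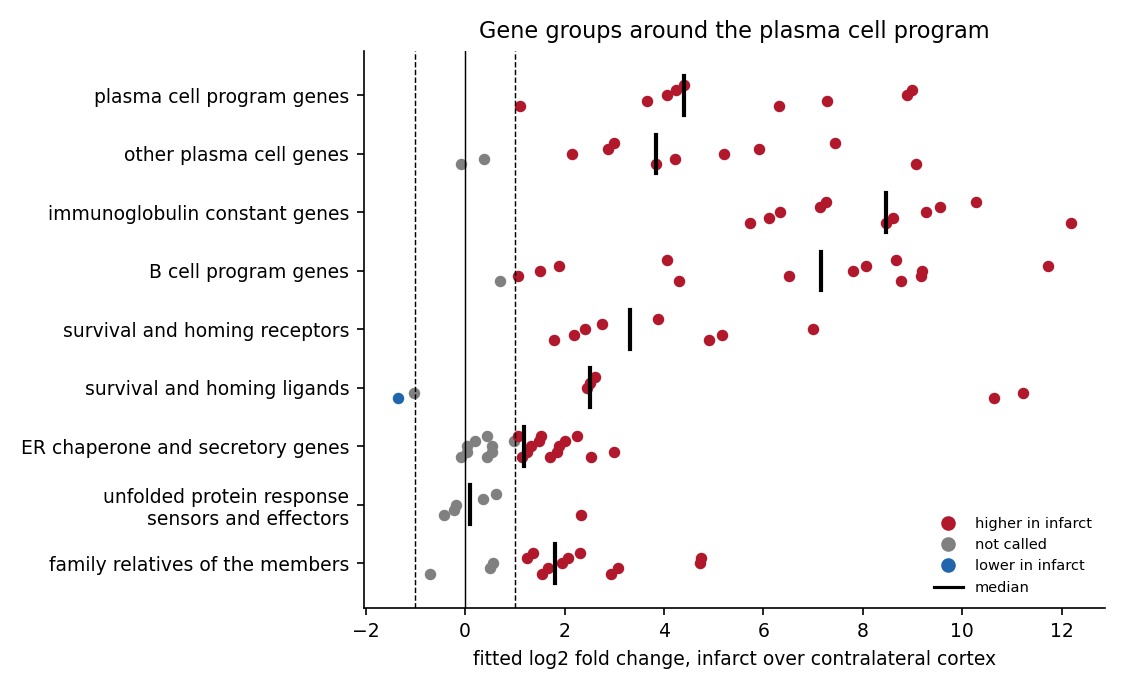
Log2 fold change of infarct over contralateral cortex for the tested genes of each list, by list. Each point is 1 gene, red where called higher, blue where called lower, and grey where not called, the bar is the list's median, and dashed lines mark the threshold of 1 in either direction. The 9 genes in the top row sit between 1.10 and 8.99, the immunoglobulin constant and B cell genes reach farther right, and the unfolded protein response genes center near 0.

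To find the genes most like *Jchain*, log2 CPM profiles over the 6 libraries, centered on each gene's mean, were compared by Euclidean distance. The 10 nearest were *Ighv1-75* (distance 1.14), *Cxcl13* (1.57), *Ms4a1* (1.69), *Pou2af1* (1.71), *Ighv3-6* (1.81), *H2-Eb1* (1.82), *Ms4a4b* (1.85), *H2-Aa* (1.99), *Cd74* (2.07), and *H2-Ab1* (2.10). Only 2 of these are immunoglobulin genes, both variable segments, and *Pou2af1* is the only other one of the 9 genes. *Cxcl13*, which encodes the attractant of B cells into follicles, measured 115, 51.7, and 32.8 CPM in infarcts 1, 2, and 3 and no more than 0.277 CPM in contralateral cortices. *Ms4a1*, which encodes CD20, a protein that B cells lose as they become plasma cells, measured 164, 71.1, and 57.2 CPM in infarcts 1, 2, and 3.

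Each of the other 8 genes had a different nearest neighbor. That of *Mzb1* was the T cell receptor component *Cd3g* (distance 0.604), with 16.6, 4.92, and 3.00 CPM in infarcts 1, 2, and 3, against 17.8, 4.63, and 2.12 for *Mzb1*. That of *Irf4* was *Ubash3a* (0.241), that of *Pou2af1* was *Ms4a4b* (0.787), and that of *Derl3* was *Eaf2* (0.784), a gene of the plasma cell list. *Sdc1* was nearest to *Neurl3* (0.278), *Prdm1* to *Enpp1* (0.357), *Xbp1* to *Pggt1b* (0.167), and *Fkbp11* to *Plscr2* (0.432). With 6 libraries of 2 regions, a small distance is a description of these profiles only.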

How the data were processed

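RNA-Seq counts from 3 infarcts and 3 contralateral cortices were used, grouped by the tissue that the labels give. According to the submitters' processing notes and the methods, stranded mRNA libraries were made from RNA of good integrity, and the authors demultiplexed reads with bcl2fastq 2.19, trimmed them with Trimmomatic 0.32, aligned them to GRCm38 with STAR 2.5.2b, and counted them with HTSeq. The deposited values are whole raw counts per Ensembl gene, without normalization. The HTSeq version, annotation, and strand setting are not given in the sources used here. Tallies of reads not assigned to a gene were left out, and 65.7% to 73.4% of tallied reads fell on genes. Multiply aligned reads are among those tallies, which lowers the counts of genes with near-identical copies. Gene identifiers were matched to GENCODE M21, where 45229 matched and 849 did not.

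Counts were tested in R 4.3.3 with edgeR 4.0.16, using filterByExpr by region, TMM scaling, and robust quasi-likelihood fits, with *p* adjusted by Benjamini-Hochberg over the 15554 genes kept. A call needed a log2 fold change beyond 1 and an adjusted *p* below 0.05. DESeq2, the tool of the study, was an alternative here (version 1.42.0). SE and 95% intervals come from the fitted statistic and its degrees of freedom. Ratios for genes with few contralateral counts are of summed, TMM-scaled counts with exact conditional intervals. Lower bounds set each contralateral library to 3 counts. Nearest profiles used log2 CPM with a prior count of 2. The procedure was run on simulated counts in which 200 genes were changed 4-fold. Of these 188 were recovered, 0 had the wrong sign, and 9 unchanged genes were called. The simulation used the same dispersion for all genes and changed far fewer genes than were called here. It does not bear on genes near 0 in 1 region. Python 3.11.15, SciPy 1.17.1, and pandas 2.3.3 were used for tables.

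The 9 genes and the 18 gene lists were chosen with earlier results of these data known. The text names the 9 genes, the list genes with the largest and smallest change or with distinct roles, and the genes nearest in profile. Of the list genes that this rule covers, 1 is not reported here. Separate libraries of a region are taken as replicates. The *p* values set the difference between regions against the spread between these libraries, which edgeR estimates partly across genes. Whether a replicate number marks the same mouse is not stated, and the main fit is unpaired. A permutation test of 3 against 3 libraries cannot give a *p* under 0.1, and none was run. The alternatives were DESeq2, RLE size factors, library totals, all genes without the low count filter, a minimum of 10 counts per library, calls without a fold threshold, the replicate number as a block, and each library left out in turn.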

Additional observations from a re-analysis of the deposited data

How the results depend on the processing

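All 9 genes kept their direction and their call in every alternative in which they were tested. Across alternatives the log2 fold change ranged from 7.80 to 9.42 for *Jchain*, 6.03 to 9.77 for *Mzb1*, 8.12 to 9.55 for *Pou2af1*, 6.12 to 6.68 for *Sdc1*, 3.55 to 4.77 for *Derl3*, 1.002 to 1.30 for *Xbp1*, 3.69 to 4.80 for *Irf4*, 3.95 to 4.47 for *Prdm1*, and 3.25 to 5.02 for *Fkbp11*. Scaling by library totals moved the median of all genes by 0.20 on the log2 scale, and *Xbp1* was then 1.30. With at least 10 counts in every library, *Mzb1*, *Pou2af1*, *Derl3*, and *Fkbp11* were no longer tested and 5 of the 9 genes were called higher. That filter removes genes that are near 0 in contralateral cortex, and under it 2 immunoglobulin constant genes, 5 other plasma cell genes, 4 survival and homing receptors, 1 ligand, and 4 B cell genes were called higher. With no fold change threshold, 2 sensors and effectors of the unfolded protein response were called higher and 1 lower, and 1 relative of the 9 genes was called lower. When single libraries were left out, 0 to 2 ligands were called lower. The oligodendrocyte markers called higher ranged from 1 to 4 and the choroid plexus markers from 0 to 4 across alternatives. Over all genes, 2789 to 5324 were called higher and 2504 to 4787 lower, with the smallest counts under the filter at 10 counts and the largest without the fold change threshold.

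With the replicate number as a block (replicate block), 9 of the 9 genes were called higher, with log2 fold changes of 8.34 for *Jchain*, 7.55 for *Mzb1*, and 1.08 for *Xbp1*, and 3945 genes were called higher and 3222 lower. *Cox6a2*, a marker of plasmacytoid dendritic cells, lost its call. Deviations of same-numbered libraries from their region means correlated at -0.190, 0.101, and 0.001 for numbers 1, 2, and 3, so the numbers are not shown to pair the samples. None of the 3 infarcts correlated best with the contralateral cortex of its own number. The fold changes of *Mzb1*, *Pou2af1*, *Derl3*, and *Fkbp11*, with 0 to 8 counts in each contralateral library, cannot be fixed closely at this depth.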
